A study of Mus musculus with 12 samples.

Results

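36 genes of microglia, the resident macrophages of the brain, were followed through RNA-seq of the dorsolateral geniculate nucleus (dLGN), the visual relay nucleus of the thalamus, at postnatal day 0 (P0). The genes cover homeostatic surface receptors, the complement C1q chains, TREM2-TYROBP and Fc receptor signalling, leukocyte membrane proteins, lysosomal proteins, activation genes and transcription factors. They were taken by symbol from the 24480 genes of the deposited tables, and all 36 were found for both mutant lines. The list was drawn up when results for microglial genes in these same libraries were already known, so the changes of its members are given as a description and are no independent evidence that microglial genes changed. *Lpl*, *Spp1*, *Olfml3* and *Sall1* are known to be expressed by other cells as well, and *Ptprc*, *Cd53*, *Laptm5*, *Itgb2* and *Spi1* by leukocytes in general.

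The 12 libraries form 4 groups of 3, and each library is a pool of dLGNs from 3 animals of 1 genotype. *Sox2* mutants were Sox2 flox/flox animals with RORα-Cre, and their controls were littermates with Sox2 flox/flox or Sox2 flox/+ and no Cre. *Nr2f1* mutants were Nr2f1 flox/flox animals with RORα-Cre, and their controls, whose genotype label names RORα-Cre and no Cre together, carried floxed *Nr2f1* alleles and no Cre according to the methods. Cre is expressed from the *Rora* locus, in neurons of the sensory thalamus that have left the cell cycle, and since every mutant carries it and no control does, the Cre insertion and the deletion cannot be told apart within a line. *Sox2* fell from 361, 363 and 382 CPM (counts scaled to library size) in the controls of its line to 116, 150.4 and 152 CPM in the mutants, and *Nr2f1* from 311, 370.4 and 380.1 to 105, 151 and 101 CPM in its own line. Total counts lay between 39293465 and 50095344 per library. The microglial members took 0.0267% to 0.0314% of the counts in *Sox2* controls, 0.0548% to 0.0629% in *Sox2* mutants, 0.0203% to 0.0233% in *Nr2f1* controls and 0.0259% to 0.0341% in *Nr2f1* mutants.

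Microglia arise from yolk sac macrophages and are already present in the thalamus at birth, when they clear dying cells and engulf synaptic material. In the dLGN, removal of retinal inputs by microglia is known to use the classical complement pathway, in which C1q tags synapses and the complement receptor encoded by *Itgam* and *Itgb2* binds the tagged material. Homeostatic microglia express *P2ry12*, *Tmem119* and *Cx3cr1*, whereas phagocytic and disease-associated microglia, which are also abundant around birth in axon tracts, express *Spp1*, *Gpnmb*, *Clec7a*, *Cst7*, *Lpl* and *Itgax*. TREM2 signals through TYROBP, and the transcription factor PU.1, encoded by *Spi1*, acts with IRF8 at many myeloid promoters.

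The members lie across the genome, with some of them side by side in the RefSeq annotation of GRCm38.p6. The 3 C1q chains lie side by side on chromosome 4 (*C1qb* at 136880126-136886200, *C1qc* at 136889801-136892936 and *C1qa* at 136895916-136898844). *P2ry13* (59207892-59210882) and *P2ry12* (59216271-59262985) lie next to each other on chromosome 3, both inside *Med12l* on its opposite strand and without a shared exon base. *Itgam* (128062640-128118491) and *Itgax* (128129526-128150657) lie close together on chromosome 7, and *Tmem119* (113793729-113800396) and *Selplg* (113817798-113832528) on chromosome 5. In the GENCODE annotation *Csf1r* shared 873 of its 4885 exon bases with *Hmgxb3* on the opposite strand, and *Itgam* shared 3450 of 4926 with the read-through gene *Gm49368* on the same strand. Whether the counting used strand is not given in the sources used here, and strand could not separate *Itgam* from *Gm49368*, so values of both members are uncertain to that extent.

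Promoters of the members were searched because most of the members moved together in 1 of the lines. RefSeq promoters (250 bases before to 50 after the start, GRCm38.p6) were at hand for 27 of the 36 members. The core of the PU.1 motif, GAGGAA on either strand, was found in 19 of the 34 promoters of these members (55.9%), against 28.3% of all 32851 promoters. Counted per gene, 17 of the 27 members held it, against 31.3% of all genes. The composite of PU.1 and IRF sites on either strand was found in 3 of the 34 (8.82%), against 2.72% of all promoters. Counted per gene, 2 of the 27 members held it, *Clec7a* and *Cd68*, against 3.16% of all genes. The same site of *Clec7a* was counted in more than 1 promoter. In *Sox2* mutants *Clec7a* was not tested and *Cd68* was not called. A match to so short a motif is a description of the sequence and not a binding site. The windows of 30 bases below show the match in 5 members that rose in *Sox2* mutants and in *Fcgr1* and *Spp1*, which were not called there. They are written 5′ to 3′ on the strand of the gene, with the motif in capitals, where TTCCTC is GAGGAA read on the other strand.
*C1qb*, chr4:136886213-136886242: gcagcaggatggGAGGAAcagaggggtgat
*C1qc*, chr4:136893090-136893119: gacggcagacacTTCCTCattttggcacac
*Trem2*, chr17:48346349-48346378: agcctcctttccTTCCTCcctccctcacgc
*P2ry13*, chr3:59210913-59210942: acaaggggaaatGAGGAAggaaaagcagta
*Fcrls*, chr3:87263651-87263680: caagtctgtaaaGAGGAAggacgtttgctt
*Fcgr1*, chr3:96294007-96294036: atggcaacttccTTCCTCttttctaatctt
*Spp1*, chr5:104434986-104435015: acaaaaccagagGAGGAAgtgtaggagcag
The motif was thus present in members that rose and in members that were not called. No match was found for *P2ry12* and *Cx3cr1*. However, 9 of the 36 members had no promoter at hand, and whether these genes were among them is not given here.

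In the control dLGN the C1q chains were the most abundant members per length. In *Sox2* controls *C1qc* stood at 12.1 ± 1.72, *C1qa* at 11.9 ± 1.15 and *C1qb* at 11.4 ± 1.16 CPM per kb of exon (mean ± SD, n = 3), so these neighbours in the order did not differ beyond their spread. *Laptm5*, a lysosomal membrane protein of leukocytes, followed at 10.2 ± 1.17 CPM per kb, and *Csf1r*, the receptor on which microglia depend for survival, at 7.99 ± 0.649 CPM per kb. *Cx3cr1*, the fractalkine receptor, ranked 10th at 5.48 ± 0.343 CPM per kb, *P2ry12*, an ADP receptor, 15th at 2.67 ± 0.167 CPM per kb, and *Tmem119*, a membrane protein used as a marker of microglia, 17th at 2.29 ± 0.733 CPM per kb. Exon lengths came from GENCODE, whereas the authors counted on RefSeq, and some genes are longer in GENCODE. *Cx3cr1* spans 119901616-120069879 there and 120048683-120068296 in RefSeq, so its level per kb may be too low. Ranks are uncertain to that extent. Activation genes stood at the end of the order. *Gpnmb*, *Cst7*, *Itgax* and *Clec7a* held the last 4 ranks, between 0.0438 and 0.0968 CPM per kb, whereas *Lpl* and *Spp1* stood at 1.77 ± 0.582 and 1.63 ± 0.824 CPM per kb.

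Microglial genes were upregulated in *Sox2* mutants. The members summed to 273, 272 and 313 CPM in the controls CTRL_1, CTRL_2 and CTRL_3 and to 538, 619.6 and 623 CPM in the mutants MUT_1, MUT_3 and MUT_4. All 3 mutants thus lay above all 3 controls. Of the 34 members with enough counts to be tested, 25 rose at FDR<0.01 and 0 fell, against 3.9% of all 15602 genes tested that rose, 4.19% that fell and 8.08% that changed in either direction. The counts in this paragraph include *Itgax*, which reached the minimum count in 1 control and 3 mutants and was tested only because it was high in the mutants. In 30 of the 34 every mutant library lay above every control library, as in 19% of all genes. All 34 had a log2 fold change above 0 (50.1% of all genes), and 30 were higher at FDR<0.05 (10.4% of all genes). The median log2 fold change of the members was 1.08, and that of all genes was 0.00050. These counts and the median were the readout in view when the list was made. In bulk tissue, more microglia and more RNA of these genes per microglial cell cannot be told apart. 13 of the 25 calls were made in all 13 alternative analyses, and 12 were lost when 1 library was left out, so that 15 members were called without CTRL_1 or without CTRL_2 and 14 without MUT_4.

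**Figure D1:**
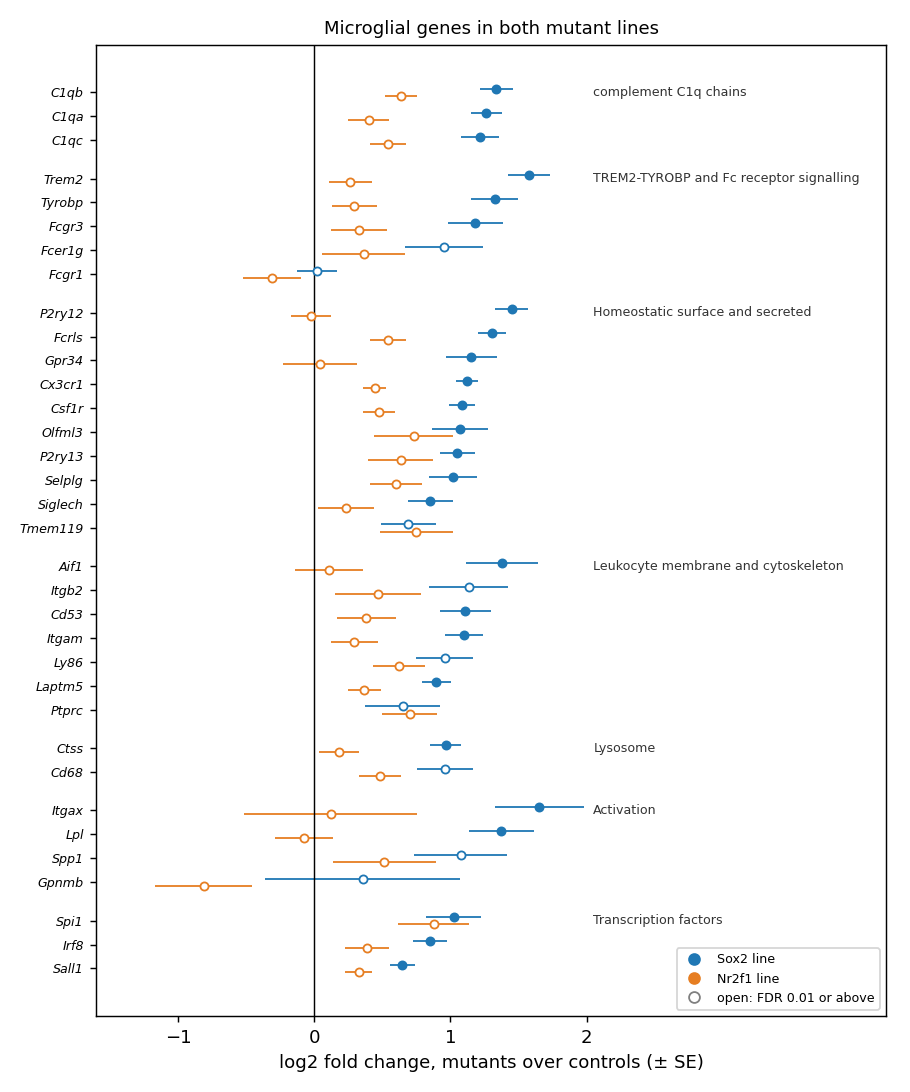
Log2 fold change of mutants over their own controls (x axis, points, with bars of 1 SE) for the 34 members tested in each line, grouped by role, with *Sox2* mutants in blue and *Nr2f1* mutants in orange and filled points for FDR<0.01. All 34 blue points lie above 0 and 25 are filled, whereas 30 orange points lie above 0 and 0 are filled.

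The complement chains, the receptors of the TREM2 pathway and the homeostatic receptors were among the members with the smallest p in *Sox2* mutants. The 3 C1q genes, whose products assemble into the C1q recognition molecule, rose together. *C1qa* was at 11.2, 12.4 and 13.6 CPM in the controls and 25.9, 32.8 and 30.3 CPM in the mutants (log2 fold change 1.26 ± 0.11 SE, FDR = 1.38e-04). *C1qb* was at 10.97, 12.97 and 13.3 CPM in the controls and 26.4, 33.6 and 34.1 CPM in the mutants (log2 fold change 1.34 ± 0.12 SE, FDR = 1.53e-04), and *C1qc* at 12.5, 14.6 and 16.6 CPM in the controls and 27.8, 35.6 and 38.3 CPM in the mutants (log2 fold change 1.22 ± 0.14 SE, FDR = 4.68e-04). MUT_1 was the lowest of the mutants for each chain and still about 2-fold above the control mean of 12.4 CPM for *C1qa*. *Trem2*, the lipid-sensing receptor of phagocytic microglia, was at 3.21, 2.91 and 3.38 CPM in the controls and 7.77, 10.6 and 9.98 CPM in the mutants (log2 fold change 1.58 ± 0.16 SE, FDR = 2.11e-04), a fold of 2.98 and the largest among the members tested other than *Itgax*. Its signalling adaptor *Tyrobp* was at 3.39, 3.72 and 5.31 CPM in the controls and 9.77, 10.7 and 10.6 CPM in the mutants (log2 fold change 1.32 ± 0.17 SE, FDR = 8.23e-04). *Fcgr3*, an activating receptor for IgG, rose as well, from 2.92, 3.34 and 3.95 CPM to 5.63, 8.49 and 9.01 CPM (FDR = 0.00388), but this call was lost without CTRL_1, CTRL_2, MUT_3 or MUT_4 (FDR up to 0.0244 over the alternatives). *Fcer1g*, the common Fc receptor γ chain, was not called, and the mutant MUT_1 at 2.92 CPM lay below the control CTRL_3 at 3.23 CPM (log2 fold change 0.95 ± 0.29 SE, FDR = 0.0444). *Fcgr1*, the high-affinity IgG receptor, stood apart from the other receptors. It was at 3.50, 3.69 and 3.68 CPM in the controls and 3.46, 3.89 and 3.70 CPM in the mutants, with overlapping groups and a log2 fold change of 0.02 ± 0.15 SE (95% interval -0.31 to 0.35, FDR = 0.930).

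Of the 10 homeostatic surface and secreted members, 9 rose in *Sox2* mutants and all 10 had every mutant above every control. *P2ry12*, which guides the motility of microglial processes, was at 6.35, 6.98 and 6.22 CPM in the controls and 19.3, 15.4 and 18.8 CPM in the mutants (log2 fold change 1.45 ± 0.12 SE, FDR = 9.08e-05). *P2ry13*, its neighbouring purinergic receptor, was at 4.05, 3.60 and 4.07 CPM in the controls and 8.28, 7.46 and 8.56 CPM in the mutants (log2 fold change 1.05 ± 0.13 SE, FDR = 6.76e-04). *Cx3cr1* was at 25.2, 22.96 and 25.9 CPM in the controls and 52.6, 50.9 and 57.9 CPM in the mutants (log2 fold change 1.12 ± 0.08 SE, FDR = 4.83e-05), the smallest FDR of the members. For these receptors the controls spanned narrow ranges and the mutants lay at 2 to 3 times their level. *Csf1r* was at 37.4, 36.99 and 42.7 CPM in the controls and 72.7, 89.8 and 85.9 CPM in the mutants (log2 fold change 1.08 ± 0.10 SE, FDR = 1.24e-04), and *Fcrls*, an Fc receptor-like protein specific to microglia in the mouse brain, at 12.6, 13.8 and 13.9 CPM in the controls and 30.001, 32.1 and 37.4 CPM in the mutants (log2 fold change 1.30 ± 0.10 SE, FDR = 7.59e-05). *Gpr34*, a lysophosphatidylserine receptor, *Siglech*, a sialic acid-binding lectin, *Selplg*, the P-selectin ligand, and *Olfml3*, a secreted protein, rose by 1.15, 0.85, 1.02 and 1.07 on the log2 scale (FDR between 0.00281 and 0.00756), and each of these calls was lost without CTRL_2 and without MUT_4. *Tmem119* was the exception. It was at 3.71, 4.78 and 6.94 CPM in the controls and 7.74, 8.74 and 8.39 CPM in the mutants, all mutants above all controls, but CTRL_3 lay close to the mutants and the difference was not called (log2 fold change 0.69 ± 0.20 SE, FDR = 0.0409). *Tmem119* was called with DESeq2, with a replicate block and without CTRL_3, in the last of these with a log2 fold change of 0.98.

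Among the leukocyte membrane and cytoskeletal members, 4 of 7 rose in *Sox2* mutants. *Laptm5* was at 23.4, 26.4 and 29.5 CPM in the controls and 44.1, 51.3 and 52.3 CPM in the mutants (log2 fold change 0.90 ± 0.10 SE, FDR = 4.68e-04). *Itgam*, the α chain of complement receptor 3, was at 3.69, 3.53 and 4.10 CPM in the controls and 7.21, 8.17 and 8.87 CPM in the mutants (log2 fold change 1.10 ± 0.14 SE, FDR = 7.50e-04). The β chain of that receptor, *Itgb2*, had a fold of the same size but a wider spread, from 1.09, 1.30 and 2.12 CPM to 2.39, 4.10 and 3.39 CPM (log2 fold change 1.13 ± 0.29 SE, FDR = 0.0250). The tetraspanin *Cd53* and the actin-binding *Aif1*, which encodes IBA1, rose by 1.11 and 1.38 on the log2 scale (FDR = 0.00375 and 0.00674). Both calls depended on single libraries, and *Aif1*, at about 1 to 3 CPM, was called in only 1 of the 6 fits that left out a library, the one without CTRL_3. *Ly86*, a partner of the toll-like receptor homologue CD180, and *Ptprc*, the pan-leukocyte phosphatase CD45, were not called (log2 fold change 0.96 and 0.65, FDR = 0.0119 and 0.125), and for *Ptprc* the groups overlapped.

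Both lysosomal members had higher levels in *Sox2* mutants. *Ctss*, the cathepsin S of macrophage lysosomes, was at 8.71, 9.44 and 8.15 CPM in the controls and 15.6, 19.02 and 16.8 CPM in the mutants (log2 fold change 0.97 ± 0.11 SE, FDR = 5.08e-04). *Cd68*, a lysosomal glycoprotein used as a marker of phagocytic microglia, was at 7.19, 5.42 and 7.65 CPM in the controls and 9.33, 16.04 and 14.1 CPM in the mutants and just missed the threshold (log2 fold change 0.96 ± 0.20 SE, FDR = 0.0108). *Ctss* lay among the calls made in every alternative, whereas *Cd68* passed in 9 of 13. All 3 transcription factors rose. *Sall1*, which maintains microglial identity, was at 41.5, 37.5 and 46.7 CPM in the controls and 61.2, 67.9 and 67.9 CPM in the mutants (log2 fold change 0.65 ± 0.09 SE, FDR = 0.00136), the smallest rise of the called members, and *Irf8* at 4.09, 4.43 and 4.10 CPM in the controls and 7.33, 7.37 and 8.06 CPM in the mutants (log2 fold change 0.85 ± 0.12 SE, FDR = 0.00174). *Spi1* rose by 1.02 on the log2 scale (FDR = 0.00759). Without CTRL_1 the calls of *Sall1*, *Irf8* and *Spi1* were all lost, at log2 fold changes of 0.64 for *Sall1* and 0.83 for *Irf8*.

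The activation genes were measured with the least depth, and 2 of the 6 rose in *Sox2* mutants. *Lpl*, the lipoprotein lipase, was at 10.04, 6.22 and 5.63 CPM in the controls and 24.4, 14.9 and 17.6 CPM in the mutants (log2 fold change 1.37 ± 0.24 SE, FDR = 0.00404), with the call lost without CTRL_2 or MUT_4 (FDR up to 0.0234). *Itgax*, the integrin CD11c, was at 0.203, 0.213 and 0.247 CPM in the controls and 0.755, 0.687 and 0.664 CPM in the mutants (log2 fold change 1.65 ± 0.33 SE, FDR = 0.00788). With 28 counts in all controls together and 91 in all mutants, *Itgax* reached the minimum count in 1 control and 3 mutants, so that it was tested only because it was high in the mutants, and its call was lost in each of the 6 fits that left out a library. *Spp1*, osteopontin, was at 2.60, 4.09 and 1.38 CPM in the controls and 4.36, 7.35 and 5.33 CPM in the mutants, all mutants above all controls, but the controls spread over a 3-fold range and the difference was not called (log2 fold change 1.07 ± 0.34 SE, FDR = 0.0515), although DESeq2 and the fit with a replicate block called it. *Gpnmb*, a transmembrane glycoprotein of lysosomes, was at 0.837, 0.450 and 0.0247 CPM in the controls and 0.317, 0.870 and 0.509 CPM in the mutants, with overlapping groups (log2 fold change 0.36 ± 0.72 SE, FDR = 0.760), and its log2 fold change turned to -0.17 without CTRL_3. *Clec7a*, the β-glucan receptor dectin-1, and *Cst7*, an inhibitor of cathepsins, were too low to be tested. *Clec7a* had 9, 2 and 2 counts in the controls and 4, 17 and 14 in the mutants, and *Cst7* 5, 4 and 1 counts in the controls and 5, 9 and 19 in the mutants. As neither gene was tested, a difference was neither established nor excluded at this depth. In CPM every mutant of *Cst7* lay above every control, with 0.122 CPM in MUT_1 against 0.113 CPM in CTRL_1, whereas *Clec7a* overlapped.

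**Figure D2:**
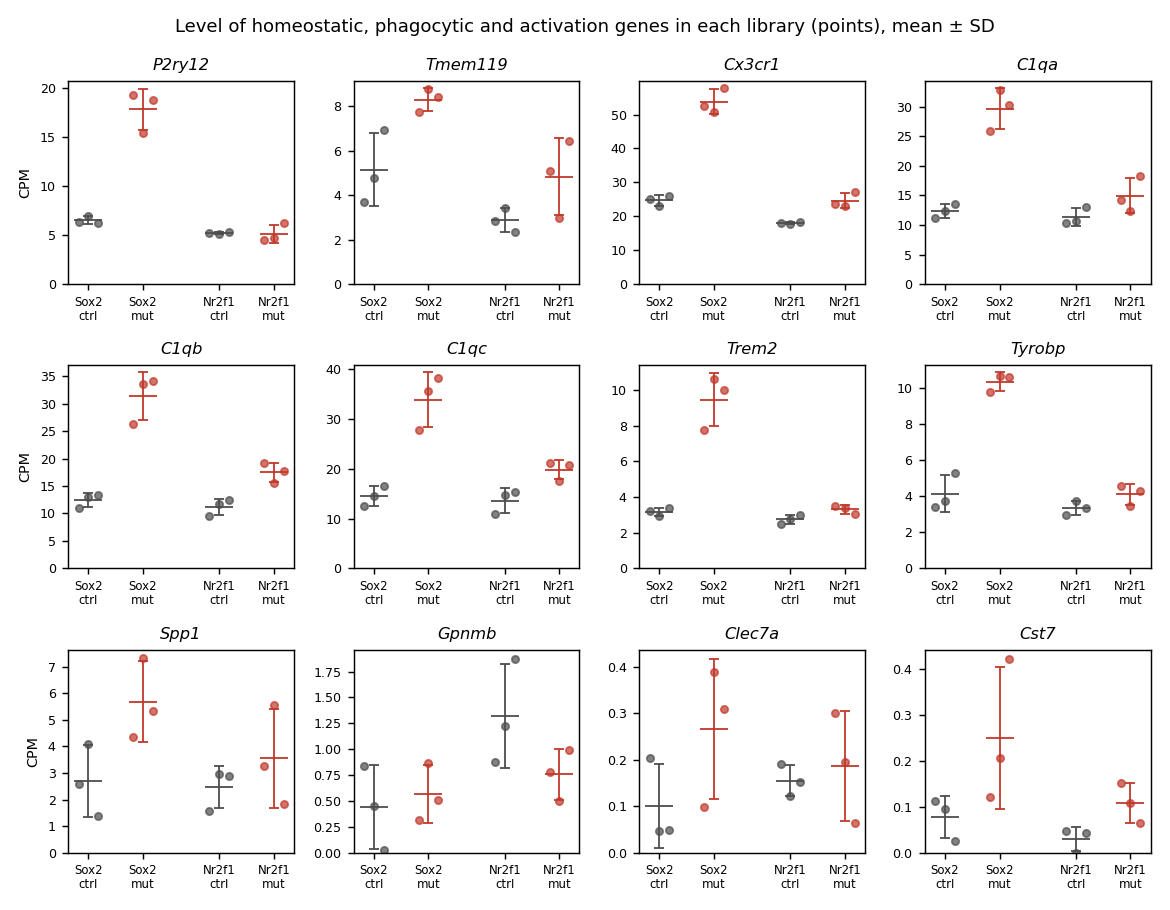
CPM (y axis, from 0) of 12 members in each library (points), with the mean (line) and SD (bars) of each group of 3, controls in grey and mutants in red. *P2ry12*, *Cx3cr1*, the C1q chains, *Trem2* and *Tyrobp* of the *Sox2* mutants lie above all other groups, whereas *Gpnmb* overlaps between mutants and controls of each line and *Clec7a* and *Cst7* stay below 0.5 CPM.

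The *Nr2f1* mutants had smaller differences in the same members. The members summed to 203, 235 and 238 CPM in the controls CTRL_B, CTRL_D and CTRL_E and to 315, 258 and 333 CPM in the mutants MUT_A, MUT_B and MUT_C. Of the 34 members tested, 0 were called at FDR<0.01 by the quasi-likelihood test of edgeR, against 1.22% of all 15600 genes that rose and 2.54% that changed in either direction. At an unadjusted p below 0.05 there were 18, of which 17 were higher in the mutants, against 13.5% of all genes. DESeq2 and the likelihood ratio test of edgeR each called 5, against 7.07% and 6.98% of all genes in these fits. The log2 fold change was above 0 in 30 of the 34 members (53.1% of all genes), with a median of 0.38 against 0.0138 for all genes, and in 14 of the 34 every mutant lay above every control (14.4% of all genes). MUT_B lay below the other mutants in 26 of the 34 members and above every control in 17, whereas MUT_A and MUT_C lay above every control in 24 and 27. Without MUT_B 7 members were called, against 5.5% of all genes in that fit.

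At FDR<0.05 there were 5 members in *Nr2f1* mutants, all higher, against 3.65% of all genes. *C1qb* was at 9.59, 11.6 and 12.4 CPM in the controls and 19.1, 15.6 and 17.7 CPM in the mutants (log2 fold change 0.64 ± 0.12 SE, FDR = 0.0125), and *C1qc* at 10.8, 14.6 and 15.4 CPM in the controls and 21.2, 17.6 and 20.7 CPM in the mutants (log2 fold change 0.54 ± 0.13 SE, FDR = 0.0411). *Cx3cr1* was at 18.2, 17.8 and 18.4 CPM in the controls and 23.5, 23.1 and 27.3 CPM in the mutants (log2 fold change 0.44 ± 0.08 SE, FDR = 0.0130). In these 3 genes, and in *Csf1r* and *Fcrls*, all mutants lay above all controls. *Csf1r* was at 27.3, 31.5 and 33.1 CPM in the controls and 44.2, 35.4 and 48.3 CPM in the mutants (log2 fold change 0.48 ± 0.12 SE, FDR = 0.0388), and *Fcrls* at 9.44, 10.3 and 9.63 CPM in the controls and 16.9, 11.6 and 14.5 CPM in the mutants (log2 fold change 0.54 ± 0.13 SE, FDR = 0.0408). *C1qb* and *Cx3cr1* passed FDR<0.01 without MUT_B, with no filter on low counts, in one fit over all 12 libraries, with the likelihood ratio test and with DESeq2.

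The other members of the *Nr2f1* line did not pass FDR<0.05. *P2ry12* was at 5.26, 5.11 and 5.35 CPM in the controls and 4.52, 4.72 and 6.19 CPM in the mutants, a log2 fold change of -0.02 ± 0.15 SE (95% interval -0.35 to 0.31, FDR = 0.941). Its controls lay within a narrow range and the mutants on both sides of it. *Tmem119* was at 2.83, 3.42 and 2.35 CPM in the controls and 5.10, 2.97 and 6.41 CPM in the mutants (log2 fold change 0.75 ± 0.27 SE, FDR = 0.124), with MUT_B within the range of the controls. *C1qa* was at 10.3, 10.7 and 13.03 CPM in the controls and 14.3, 12.4 and 18.2 CPM in the mutants (log2 fold change 0.40 ± 0.15 SE, FDR = 0.140). *Trem2* was at 2.50, 2.77 and 3.00 CPM in the controls and 3.51, 3.40 and 3.03 CPM in the mutants (log2 fold change 0.26 ± 0.16 SE, FDR = 0.346), and *Tyrobp* at 2.95, 3.73 and 3.37 CPM in the controls and 4.59, 3.47 and 4.28 CPM in the mutants (log2 fold change 0.29 ± 0.17 SE, FDR = 0.316). These receptors differed from their controls by about 1.2-fold, within or close to the spread of the libraries. *Spp1* was at 1.57, 2.95 and 2.89 CPM in the controls and 3.26, 5.55 and 1.83 CPM in the mutants (log2 fold change 0.52 ± 0.38 SE, FDR = 0.445), and *Lpl* at 3.69, 5.42 and 5.94 CPM in the controls and 4.89, 3.66 and 5.72 CPM in the mutants (log2 fold change -0.08 ± 0.21 SE, FDR = 0.859), both with overlapping groups. *Gpnmb* was the member with the lowest log2 fold change, at 0.880, 1.22 and 1.87 CPM in the controls and 0.778, 0.498 and 0.989 CPM in the mutants (log2 fold change -0.81 ± 0.36 SE, FDR = 0.197). *Clec7a* had 8, 6 and 7 counts in the controls and 12, 9 and 3 in the mutants, and *Cst7* 2, 0 and 2 and then 6, 5 and 3 counts. In CPM every mutant of *Cst7* lay above every control in this line as well, at no more than 0.151 CPM and without a test. A count of 0 in CTRL_D allows a level of *Cst7* of up to 0.0599 CPM there (3 counts, counting error only).

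Of the remaining members of the *Nr2f1* line, *Spi1*, *Selplg*, *P2ry13*, *Ly86*, *Ptprc* and *Olfml3* had log2 fold changes between 0.60 and 0.88, with FDR between 0.0688 and 0.159. *Olfml3* was at 7.47, 11.8 and 12.9 CPM in the controls and 22.6, 9.99 and 20.99 CPM in the mutants, so that MUT_A and MUT_C lay above the controls and MUT_B among them. *Cd68*, *Itgb2*, *Irf8*, *Cd53*, *Laptm5*, *Fcer1g*, *Fcgr3* and *Sall1* lay between 0.33 and 0.48. *Itgam*, *Siglech*, *Ctss*, *Itgax*, *Aif1* and *Gpr34* lay between 0.04 and 0.29, and *Fcgr1* at -0.31 ± 0.21 SE.

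The change in *Sox2* mutants was compared with the change in *Nr2f1* mutants with an interaction term (line by genotype) fitted to the 12 libraries together. Of 35 members tested, 3 differed at FDR<0.01, each with the larger change in *Sox2* mutants, against 0.331% of all 15989 genes with the larger change there and 1.44% that differed in either direction. The difference was above 0 in 33 of the 35 (48.5% of all genes). Both counts include *Clec7a* (1.13 ± 0.97 SE), which was too low to be tested in either line alone. It reached the minimum count of those fits in 0 controls, 2 *Sox2* mutants and 1 *Nr2f1* mutant, and so entered only through mutants. *P2ry12* differed by 1.48 ± 0.18 SE, FDR = 4.19e-04 on the log2 scale, with every *Sox2* mutant above its controls and the *Nr2f1* mutants around theirs. *Trem2* differed by 1.32 ± 0.21 SE, FDR = 0.00264, and *Cx3cr1* by 0.69 ± 0.12 SE, FDR = 0.00402. *P2ry12* was called in all 17 alternatives, *Trem2* in 15, with the call lost without CTRL_2 or MUT_4, and *Cx3cr1* in 8, with the call lost in 9 of the 12 fits that left out a library. At FDR<0.05 there were 8 members, all with the larger change in *Sox2* mutants (1.12% of all genes). The other 5 were *C1qa* (0.87), *Tyrobp* (1.04), *Fcrls* (0.77), *Ctss* (0.79) and *Lpl* (1.46), with FDR between 0.0288 and 0.0369.

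Not every member had the larger change in *Sox2* mutants. The differences of *Tmem119* (-0.05, 95% interval -0.85 to 0.75), *Ptprc* (-0.05, -0.78 to 0.68) and *Spi1* (0.15, -0.62 to 0.92) were near 0 on the log2 scale, and their intervals leave room for a difference in either direction. *Spp1* differed by 0.57 (-0.67 to 1.81) and *Gpnmb* by 1.18 (-0.71 to 3.07). *C1qb* and *C1qc*, by 0.71 and 0.68, did not pass FDR<0.05 (FDR = 0.0532 and 0.113).

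**Figure D3:**
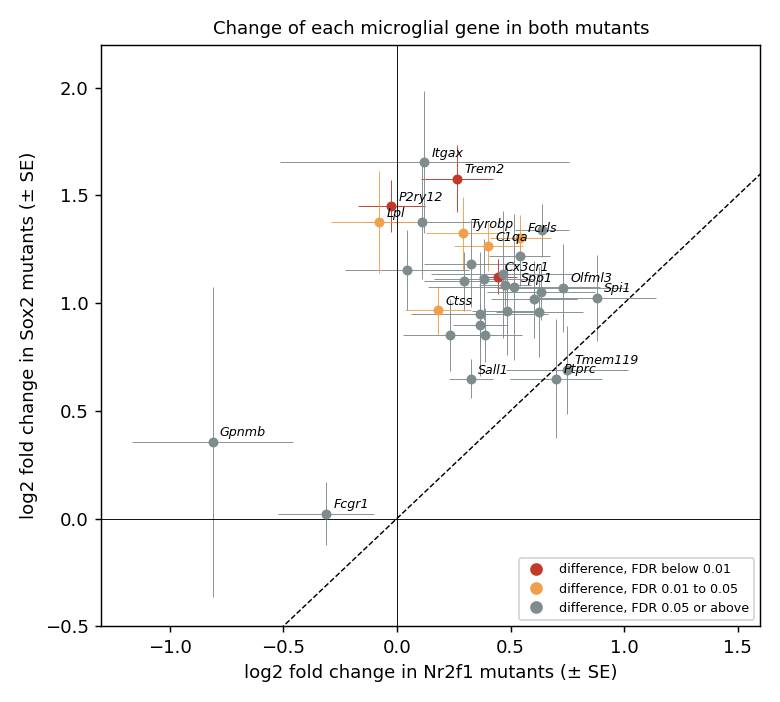
Log2 fold change in *Sox2* mutants (y axis) against that in *Nr2f1* mutants (x axis) for each member tested in both lines (points, with bars of 1 SE), coloured by the FDR of the difference between the lines, with equal changes on the dashed line. *P2ry12*, *Trem2* and *Cx3cr1* are red (FDR<0.01), and *Tmem119* and *Ptprc* lie at the dashed line.

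Homeostatic and activation genes were then set side by side. In *Sox2* mutants the mean of the 10 homeostatic members was higher than in controls by 1.07 on the log2 scale, and the mean of the 6 activation members by 1.05 (0.1 CPM added before the logarithm). The activation mean minus the homeostatic mean was -3.02, -3.28 and -4.19 in the controls and -3.77, -3.30 and -3.50 in the mutants, so that the groups overlapped and their means differed by -0.02. In the *Nr2f1* line the homeostatic mean was higher in mutants by 0.42 and the activation mean by 0.11. The difference of the means was -3.11, -2.81 and -2.65 in the controls and -3.00, -2.87 and -3.63 in the mutants, again with overlap. For the 4 activation genes *Spp1*, *Gpnmb*, *Clec7a* and *Cst7* against *P2ry12*, *Tmem119* and *Cx3cr1* alone, the change of the balance was -0.20 in *Sox2* and -0.24 in *Nr2f1* mutants, with overlap in both. The spread between controls, over 1 on the log2 scale in the *Sox2* line, limits what these few low genes can show.

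Single members were also divided by *Cx3cr1* of the same library. The members shown this way were chosen after their values were seen, and no test was made. In the *Sox2* line the ratio of *Trem2* was 0.127, 0.127 and 0.130 in the controls and 0.148, 0.209 and 0.172 in the mutants, without overlap. The ratio of *P2ry12* was 0.252, 0.304 and 0.240 in *Sox2* controls and 0.367, 0.304 and 0.324 in *Sox2* mutants, with overlap. In the *Nr2f1* line it was 0.290, 0.287 and 0.291 in the controls and 0.192, 0.205 and 0.227 in the mutants. All *Nr2f1* mutants were thus below all their controls, which themselves lay within a narrow range. The ratio of *Fcgr1* was lower in the mutants of both lines, at 0.139, 0.161 and 0.142 in *Sox2* controls against 0.0658, 0.0765 and 0.0639 in the mutants. In *Nr2f1* controls it was 0.128, 0.176 and 0.139, against 0.113, 0.0751 and 0.0764 in the mutants. *Gpnmb*, set against *Cx3cr1* as a log2 ratio with 0.1 CPM added to each, was at -4.22, -3.76 and -3.23 in *Nr2f1* controls and at -4.75, -5.28 and -4.65 in the mutants, which all lay below the controls, and it overlapped in the *Sox2* line. *Tmem119*, *Cd68*, *Lpl* and *Spp1* overlapped between mutants and controls in both lines. A ratio shows unequal change of both genes and not which of them moved per cell.

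**Figure D4:**
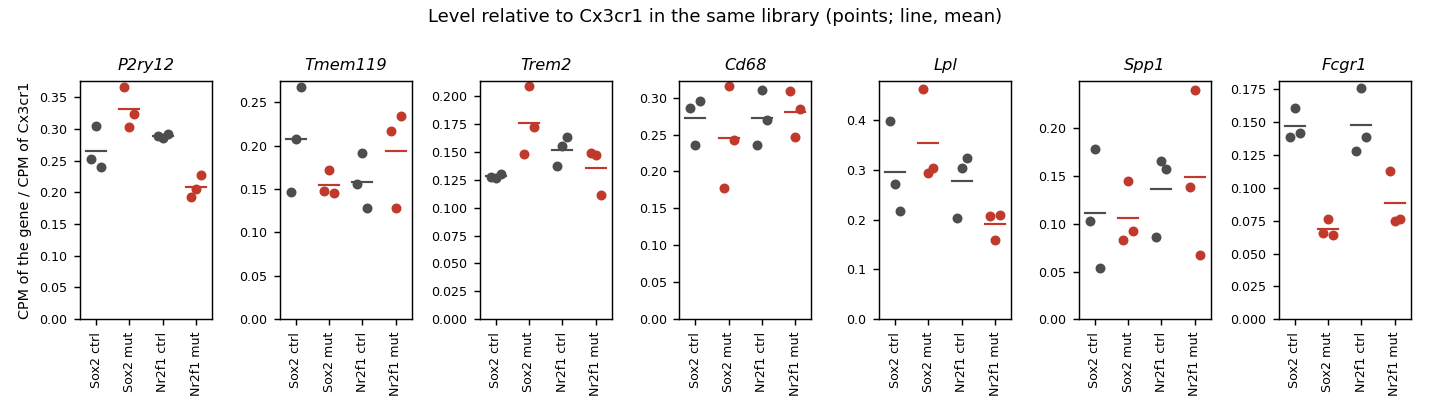
CPM of 7 members divided by the CPM of *Cx3cr1* in the same library (y axis, from 0) for each library (points) and group (line, mean), controls in grey and mutants in red. *P2ry12* of the *Nr2f1* mutants lies below its controls, *Trem2* of the *Sox2* mutants above, and *Fcgr1* of both mutants below.

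Microglial and phagocytic genes outside the list moved with it in *Sox2* mutants. The lists of these genes were also chosen with earlier results of these data known, so they are no independent evidence. Of 39 other microglial genes tested, 19 rose and 0 fell in *Sox2* mutants, with a median log2 fold change of 0.84, against 3.9% of all genes that rose. In *Nr2f1* mutants 0 were called, with a median of 0.35. There 4 passed FDR<0.05 and 13 an unadjusted p below 0.05, all higher, against 3.65% and 13.5% of all genes. Among those with the smallest p in *Sox2* mutants were *Lgmn*, the lysosomal protease legumain (0.82), *Adgre1*, which encodes the macrophage antigen F4/80 (1.30), the phosphatase *Inpp5d* (0.88) and the exchange factor *Cyth4* (1.07), with FDR between 1.22e-04 and 5.39e-04.

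Of 22 other activation and phagocytosis genes tested, 11 rose and 0 fell in *Sox2* mutants (median 0.62), against 3.9% of all genes that rose and 4.19% that fell. Of 21 in *Nr2f1* mutants 1 rose and 1 fell (median 0.16), against 1.22% and 1.32% of all genes. *Apoe*, the apolipoprotein that astrocytes and activated microglia make, was at 629.7, 642 and 737 CPM in the controls and 1277, 1375 and 1367 CPM in the mutants of the *Sox2* line (log2 fold change 1.00 ± 0.08 SE, FDR = 7.85e-05). The lysosomal genes *Ctsd*, *Grn* and *Ctsb* and the growth factor *Igf1* rose by 0.80, 0.73, 0.53 and 0.91 on the log2 scale. In *Nr2f1* mutants *Ctsz* rose (0.53) and *Ank*, a pyrophosphate transporter, fell (-0.35). Several of these genes are expressed by most cells of the brain. Against the same shares, of 18 other complement and complement-related genes *Clu* (0.56) and *C4b* (1.14) rose and the complement inhibitors *Cd55* (-0.85) and *Csmd3* (-0.54) fell in *Sox2* mutants, whereas *Csmd3* (0.46) and the neuronal pentraxin *Nptx1* (0.76) rose in *Nr2f1* mutants. *C3*, the substrate of the cascade that C1q starts, was not called in either line (0.32 and -0.53, FDR = 0.225 and 0.102).

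Markers of other cells were summed in each library, since the dissected tissue can hold meninges, vessels and blood. Of the border macrophage markers, 0 of 9 tested were called in *Sox2* mutants and 0 of 10 in *Nr2f1* mutants by edgeR at FDR<0.01 (4 and 6 at an unadjusted p below 0.05, all higher, against 18.7% and 13.5% of all genes), with medians of 0.81 and 0.95. Their sum was 121, 109 and 181 CPM in *Sox2* controls and 164, 294 and 223 CPM in the mutants. In the *Nr2f1* line it was 93.97, 121 and 109 and 228, 121 and 249 CPM. The 6 fibroblast markers were high in CTRL_3, MUT_3, MUT_A and MUT_C, with sums of 1836, 3194, 1923 and 2361 CPM against 701 to 1683 CPM in the other libraries. The border macrophage sum was high in MUT_3, MUT_A and MUT_C as well, but MUT_4, with 1683 CPM of fibroblast markers, also reached 223 CPM and lay above CTRL_3. *Mrc1*, the mannose receptor of border macrophages, was at 13.2, 18.3 and 16.2 CPM in the controls and 43.7, 21.3 and 48.7 CPM in the mutants of the *Nr2f1* line. In that line the libraries with high microglial members were thus those with high border macrophage and fibroblast markers. In the *Sox2* line CTRL_3 had the highest sums of the controls for members, border macrophages and fibroblasts, and MUT_1 the lowest of the mutants. MUT_3 had the highest marker sums but MUT_4 the highest member sum. MUT_1 lay below CTRL_3 in both marker sums and above it in the member sum. The part of these cells in the result was not tested in either line.

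The libraries with high fibroblast markers were then left out, an alternative chosen after seeing the data. In the *Sox2* line, without CTRL_3 and MUT_3, 28 members were called and the median was 1.15, with 17.8% of all genes called in that fit. The mutants that remained, MUT_1 and MUT_4, still had more fibroblast markers (1407 and 1683 CPM) than CTRL_1 and CTRL_2 (926 and 916 CPM) and more border macrophage markers (164 and 223 against 121 and 109 CPM), so that this fit does not remove the difference in these markers. In the *Nr2f1* line, with MUT_A and MUT_C left out, MUT_B alone against 3 controls gave a median of 0.20, with 23 of 34 members above 0 and 0 called, MUT_B being assumed to vary like the controls. MUT_B was the lowest mutant in 26 of the 34 members, so a lower median had to follow from this choice of libraries. It is no separate evidence about MUT_A and MUT_C. Without all 4 libraries, 4 members differed between the lines, *P2ry12*, *Cx3cr1*, *Fcrls* and *Tyrobp*, against 1.72% of all genes. *Trem2* was not called there (1.25, FDR = 0.0321).

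Endothelial, pericyte, fibroblast and dividing cell markers had 0 calls in either line by edgeR, with medians between 0.09 and 0.98. At an unadjusted p below 0.05 there were 6 of 8, 5 of 6, 3 of 6 and 6 of 8 in *Sox2* mutants and 7, 2, 6 and 0 in *Nr2f1* mutants, all higher, against 18.7% and 13.5% of all genes. Of the 6 astrocyte markers 4 rose at FDR<0.01 in *Sox2* mutants (median 0.59) and 1 in *Nr2f1* mutants (median 0.28), against 3.9% and 1.22% of all genes. The 8 markers of dividing cells summed to 204, 176 and 233 CPM in *Sox2* controls and 254, 246 and 289 CPM in the mutants. Markers of blood leukocytes reached 47.6 CPM in CTRL_3 and 30.3 CPM in MUT_4, against 2.21 to 9.68 CPM in the other libraries, and 0 of the 6 tested were called (1 and 0 at an unadjusted p below 0.05). Of the 7 markers of thalamic glutamatergic neurons, 4 fell in *Sox2* mutants, among them *Rora* (-1.96) and *Slc17a6* (-0.96), against 4.19% of all genes. *Gbx2* rose (1.67), against 3.9% of all genes, and *Tcf7l2* (0.12) and *Foxp2* (0.10) were not called. In *Nr2f1* mutants *Prox1* rose (1.10) and *Lef1* fell (-0.70), against 1.22% and 1.32% of all genes. The part of a changed makeup of the tissue in the microglial values was not tested.

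**Figure D5:**
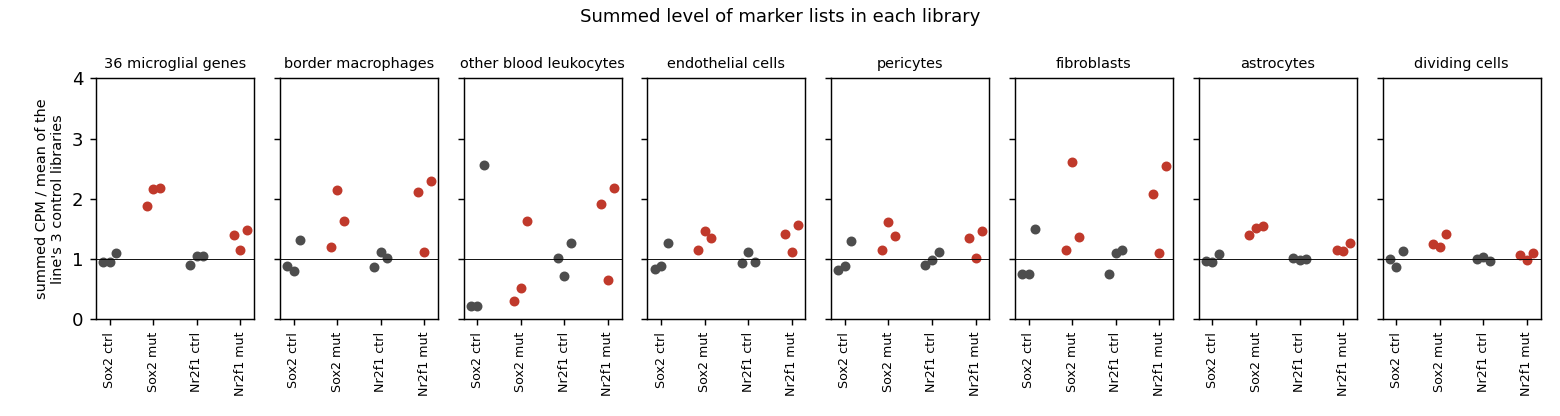
Summed CPM of the 36 members and of 7 lists of marker genes in each library (points), divided by the mean of the 3 control libraries of the same line (y axis, from 0, controls in grey and mutants in red). The members of the *Sox2* mutants lie near 2, with little spread, whereas border macrophage and fibroblast markers spread widely in the mutants of both lines.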

How the data were processed

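RNA-seq was measured in 12 libraries of P0 dLGN, each a pool of 3 animals, in 4 groups of 3. Per the study's methods and the submitters' processing notes, the authors aligned paired reads with STAR to the RefSeq mouse transcriptome (mm10) and used RSEM for quantification. The tables hold expected counts per gene as deposited by the authors, without normalization, 1 table for each line, of which 7.77% were not whole and all were rounded. Columns were assigned to groups by their names.

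Genes were kept by filterByExpr (at least 10 counts in enough libraries, 15 in all), normalized by TMM and tested in edgeR 4.0.16 (R 4.3.3) by the quasi-likelihood F-test, mutants against controls of their own line, with Benjamini-Hochberg adjustment over all genes tested and FDR<0.01. The interaction of line and genotype was tested over the 12 libraries. Levels are CPM after TMM, and levels between genes were divided by exon length (GENCODE, GRCm38). Total counts of 39293465 to 50095344 per library make 3 counts worth 0.0599 to 0.0764 CPM. With 3 pools a group, an exact permutation test of 1 gene cannot give a two-sided p below 0.1. According to the methods the controls were littermates of the mutants, but which pools share litters is not given. The pools were therefore fitted as independent, and p-values measure the spread between these pools.

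The members and the lists of other genes were chosen with earlier results of these data known. Values in every library were given for *P2ry12*, *Tmem119*, *Cx3cr1*, *Spp1*, *Gpnmb*, *Clec7a*, *Cst7*, the C1q chains, *Trem2*, *Tyrobp* and the 15 called members with the smallest p, and for *Fcgr3*, *Fcgr1*, *Itgb2*, *Cd68*, *Lpl*, *Itgax* and, in the *Nr2f1* line, *Olfml3*, which were chosen after their values were seen. Of other lists, up to 5 called genes with the smallest p were named, and other genes, such as *C3* and *Mrc1*, were chosen after their values were seen. Alternatives were DESeq2 1.42.0, edgeR's likelihood ratio test, upper quartile normalization, no filter, a filter of at least 10 counts in every library, FDR<0.05, a joint fit of the 12 libraries, a replicate block and leaving out each library. The tests were checked on simulated counts. Protein sequences were not used here.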

Additional observations from a re-analysis of the deposited data

Results flagged for a closer look

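The change of 3 microglial genes differed between the mutant lines by the interaction of line and genotype (edgeR's quasi-likelihood test, FDR<0.01), each with the larger change in *Sox2* mutants. *P2ry12* differed by 1.48 ± 0.18 SE, FDR = 4.19e-04 on the log2 scale, *Trem2* by 1.32 ± 0.21 SE, FDR = 0.00264 and *Cx3cr1* by 0.69 ± 0.12 SE, FDR = 0.00402. For *P2ry12* 3 of 3 *Sox2* mutants lay above their controls, and 1 of 3 *Nr2f1* mutants did so. For *Trem2* and *Cx3cr1* all mutants lay above their own controls in both lines, but neither gene was called in *Nr2f1* mutants. *Cx3cr1* was higher there by 0.44 ± 0.08 SE (FDR = 0.0130), so that for this gene the lines differed in the size of the change. The change of *Trem2* there was 0.26 ± 0.16 SE (FDR = 0.346), within or close to the spread of the libraries, so its direction in that line is not established.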

How the results depend on the processing

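The 25 members called in *Sox2* mutants were 14 to 28 when 1 library was left out (15 without CTRL_1, 15 without CTRL_2, 14 without MUT_4, 28 without CTRL_3), and with the replicate number as a block, which pairs CTRL_1 with MUT_1 and CTRL_3 with MUT_3, they were 27, with a median of 1.02. Only 2 numbers are shared, and the correlations of the paired deviations were 0.187 and 0.169 (-0.303 to 0.173 in other pairs), so the numbers do not establish a pairing. No paired analysis was possible in the *Nr2f1* line because its columns share only 1 letter. There the 0 calls became 2 with no filter, 5 with DESeq2, 5 with the likelihood ratio test, 2 in one fit over 12 libraries, 5 at FDR<0.05 and 0 to 7 when 1 library was left out (7 without MUT_B). The 3 members that differed between the lines became 10 with DESeq2, 8 with the likelihood ratio test, 8 at FDR<0.05 and 1 to 5 when 1 library was left out (1 without CTRL_2 or MUT_4, 5 without MUT_C). The cause was not tested. The share of all genes called also changed between fits, so a higher count alone is no result about the members. In the *Sox2* line this share was 8.08% in the main fit and 10.3% with the block. It was 3.51%, 3.12% and 3.15% without CTRL_1, CTRL_2 and MUT_4, and 13.7% without CTRL_3. In the *Nr2f1* line it was 2.54% in the main fit and higher in each setting that called 5 or 7 members. For the difference between the lines it was 1.44% in the main fit. At FDR<0.05 1.12% of all genes had the larger change in *Sox2* mutants. Shares for the other fits of the difference are not given here, so the counts of members in those fits are no result about the members. Medians lay between 1.03 and 1.18 in *Sox2* and between 0.31 and 0.47 in *Nr2f1* mutants over the fits without 1 library, and the *Nr2f1* median was 0.20 without MUT_A and MUT_C. Among members given with the values of each library, the sign turned in *Sox2* mutants for *Fcgr1* (-0.02 to 0.07) and *Gpnmb* (-0.17 to 1.23, with -0.17 without CTRL_3 and -0.09 without MUT_3) and in *Nr2f1* mutants for *Lpl* (-0.26 to 0.08) and *P2ry12* (-0.18 to 0.0607, with 0.0607 without MUT_A and 0.0355 without MUT_B). Depth limits *Clec7a*, *Cst7*, *Itgax* and *Gpnmb*, at under 2 CPM in every library. Control means under 2 CPM were also found for *Aif1*, *Cd53*, *Itgb2* and *Ptprc* in both lines. The same held for *Ly86* in the *Sox2* line and for *Selplg*, *Siglech* and *Gpr34* in the *Nr2f1* line.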
